A study of Mus musculus with 11 samples.

Results

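Macroautophagy builds a double membrane around cytoplasmic cargo and delivers it to the lysosome. The RNA of 37 genes of this machinery was examined in sorted splenic B cells of the mouse. The genes were chosen by name, as the parts that start, lengthen and load the autophagosome, and all 37 were found among the 48795 genes of the deposited table. They fall into the ULK kinase complex (5 genes), the class III PI3-kinase complex and its regulators (6), membrane supply and PI3P effectors (6), the conjugation enzymes (11), the ATG8 family (5), and cargo receptors with the transcription factor Tfeb (4).

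All mice were females 8 to 12 weeks old, injected intravenously with sheep red blood cells (SRBCs) and analysed on day 10. Myc_WT mice carried normal Myc. Myc_VD mice carried the V394D change in MYC, which prevents its binding to the zinc finger protein MIZ1 and leaves its partnership with MAX. The change sits in the germline Myc gene, so every cell of the mouse carries it. Gene-level values do not show a point change, so the genotype rests on the labels. Light zone (LZ) B cells, the germinal center (GC) fraction in which selection by T cells takes place, were sorted as B220+ Fas+ cells that were CD138neg, IgDneg and CD38neg with high CD86 and low CXCR4, from 4 Myc_WT mice (numbered 1 to 4) and 4 Myc_VD mice (5 to 8). Memory B cells (MBCs), sorted as B220+ CD138neg IgDneg CD38+ CD273+ cells, came from Myc_WT mice 1, 3 and 4. The mouse names begin differently in the 2 genotypes, and also in Myc_WT mouse 4 and the other Myc_WT mice. What these names stand for is not given in the sources used here, and an effect of genotype cannot be told apart from one of any other difference that the names follow.

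Values are TPM, in which reads are divided by transcript length and scaled to the same total in every library, so that levels of different genes in 1 library can be compared. TPM hold no depth, and the precision of each value was taken from the spread between mice. Differences are of means on the log2(TPM + 1) scale with their standard error (SE), from limma on all genes that averaged 1 TPM or more over the groups compared, and p-values were adjusted over all of these genes. The scale understates differences of genes near 1 TPM. Both comparisons used the same 4 Myc_WT LZ libraries as reference.

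In the textbook order of events, the ULK kinase complex receives signals on nutrients and energy, and the PI3-kinase complex then marks the site of membrane growth with the lipid PI3P. PI3P effectors and lipid carriers feed the growing membrane. An enzyme cascade that resembles ubiquitination attaches the small ATG8 proteins to lipid, and cargo receptors bind both ATG8 proteins and tagged cargo. In B cells autophagy is known for its part in the survival of long-lived plasma cells and memory B cells. TFEB drives many autophagy and lysosome genes, and it binds a short DNA element that contains CACGTG, the same E-box that MYC binds together with MAX.

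RefSeq promoters (GRCm38.p6, 250 bases before to 50 after each annotated start) were matched by symbol for 31 of the 37 genes, with 36 promoters in all. CACGTG, which reads the same on both strands, stood in 4 of these 36 promoters (11.1%) and in 2349 of all 32851 RefSeq promoters (7.15%). The 4 promoters belong to Atg7, Atg5, Atg14 and Atg3, the last with the element at 2 places. They are shown because the series varies MYC. Distances are from the RefSeq start of each promoter, which for Atg7, Atg14 and Atg3 lies inside the Ensembl span of the gene, and for a gene with several starts is only 1 of them. Capitals mark the E-box, and each run is read 5′ to 3′ on the strand of its gene.
Atg7, chr6:114670952-114670981, plus strand, E-box beginning 132 bases before the start: catattggtggtCACGTGtgcagtaagtga
Atg5, chr10:44268313-44268342, plus strand, E-box beginning 14 bases before the start: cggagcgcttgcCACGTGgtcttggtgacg
Atg14, chr14:47568418-47568447, minus strand, E-box beginning 1 base before the start: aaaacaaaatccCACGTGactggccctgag
Atg3, chr16:45158723-45158752, plus strand, E-box beginning 94 bases before the start: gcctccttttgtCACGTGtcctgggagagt
Atg3, chr16:45158746-45158775, plus strand, E-box beginning 71 bases before the start: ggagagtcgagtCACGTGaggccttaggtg
Gabarapl2, an ATG8 gene, is shown for comparison because its level differed most between Myc_VD and Myc_WT LZ B cells, and its promoter window held no CACGTG. These are the 250 bases before its start, at chr8:111940453-111940702 on the plus strand.
Gabarapl2: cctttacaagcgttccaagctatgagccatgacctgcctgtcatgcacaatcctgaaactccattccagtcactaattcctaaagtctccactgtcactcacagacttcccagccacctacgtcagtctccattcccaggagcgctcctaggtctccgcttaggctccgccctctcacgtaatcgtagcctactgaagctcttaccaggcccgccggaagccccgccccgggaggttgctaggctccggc

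A list of 7 GC B cell genes summed to 1290–1537 TPM in Myc_WT LZ, 1132–1580 TPM in Myc_VD LZ and 322–426 TPM in MBC libraries, whereas a list of 6 MBC genes summed to 32.5–36.0, 17.4–34.7 and 506–816 TPM. The 5 plasma cell genes summed to 229–381 TPM in Myc_WT LZ, 134–221 TPM in Myc_VD LZ and 193–402 TPM in MBCs. The sums of the genotypes did not overlap, but among the 5 genes this held for Jchain alone (151.94–280.36 against 67.11–143.94 TPM). Sdc1, Prdm1, Irf4 and Xbp1 overlapped. Of all genes tested, 9.16% were lower in Myc_VD without overlap. MBC libraries also held more RNA of a 5-gene myeloid list (42.2–225 TPM, against 4.26–8.93 in Myc_WT LZ and 0–21.8 in Myc_VD LZ), and the defining gene Csf1r was at 5.89–16.4 TPM in them and at 0–0.08 TPM in Myc_WT LZ. The 5 erythroid genes summed to 114–224 TPM (median 156) in Myc_WT LZ and to 68.3–392 TPM (median 342) in Myc_VD LZ. In MBCs they summed to 5.21–6670 TPM (median 53.4), with the highest value in mouse 3. T cell markers stayed at or under 12.5 TPM in sum in every library. The libraries also differed in breadth. Of 6910 genes averaging 10 TPM or more in Myc_WT LZ, 28–39 were listed at 0 in single Myc_WT LZ libraries and 46–99 in Myc_VD LZ libraries. In MBCs, 282 were at 0 in mouse 1, 446 in mouse 3 and 56 in mouse 4. Ribosomal RNA genes took 35.7–44.5% of TPM in Myc_WT LZ, 44.1–61.3% in Myc_VD LZ and 36.1–37.5% in MBCs, which leaves less of the fixed total for other genes where that share is high. The part of these features in the results below was not tested.

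In Myc_WT LZ B cells the median gene of the machinery stood at the 76.2 percentile of protein-coding genes (median over 4 libraries), and 1 to 4 of its genes were under 1 TPM in single libraries. Its 37 genes summed to 724–868 TPM, or 0.147–0.173% of protein-coding TPM. The corresponding shares were 0.137–0.197% in Myc_VD LZ and 0.178–0.220% in MBCs, so the Myc_VD range enclosed the Myc_WT range and the MBC range lay above it. A few abundant genes weigh heavily in such sums, and the percentile of the median gene, at 74.776–76.998 in Myc_WT LZ, 72.7–79.0 in Myc_VD LZ and 72.8–77.5 in MBCs, overlapped between all groups. The genes with the highest Myc_WT LZ levels were Uvrag (146 ± 7.84 TPM, SD, n = 4), Gabarap (68.1 ± 8.77), Map1lc3b (49.5 ± 7.76), Atg3 (46.7 ± 15.2) and Becn1 (46.3 ± 6.33). The last 3 did not differ beyond their spread. Wipi1 (0.0525 ± 0.0862 TPM) and Atg4c (0.367 ± 0.484 TPM) were at the bottom, each at 0 in at least 1 Myc_WT LZ library.

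**Figure D1:**
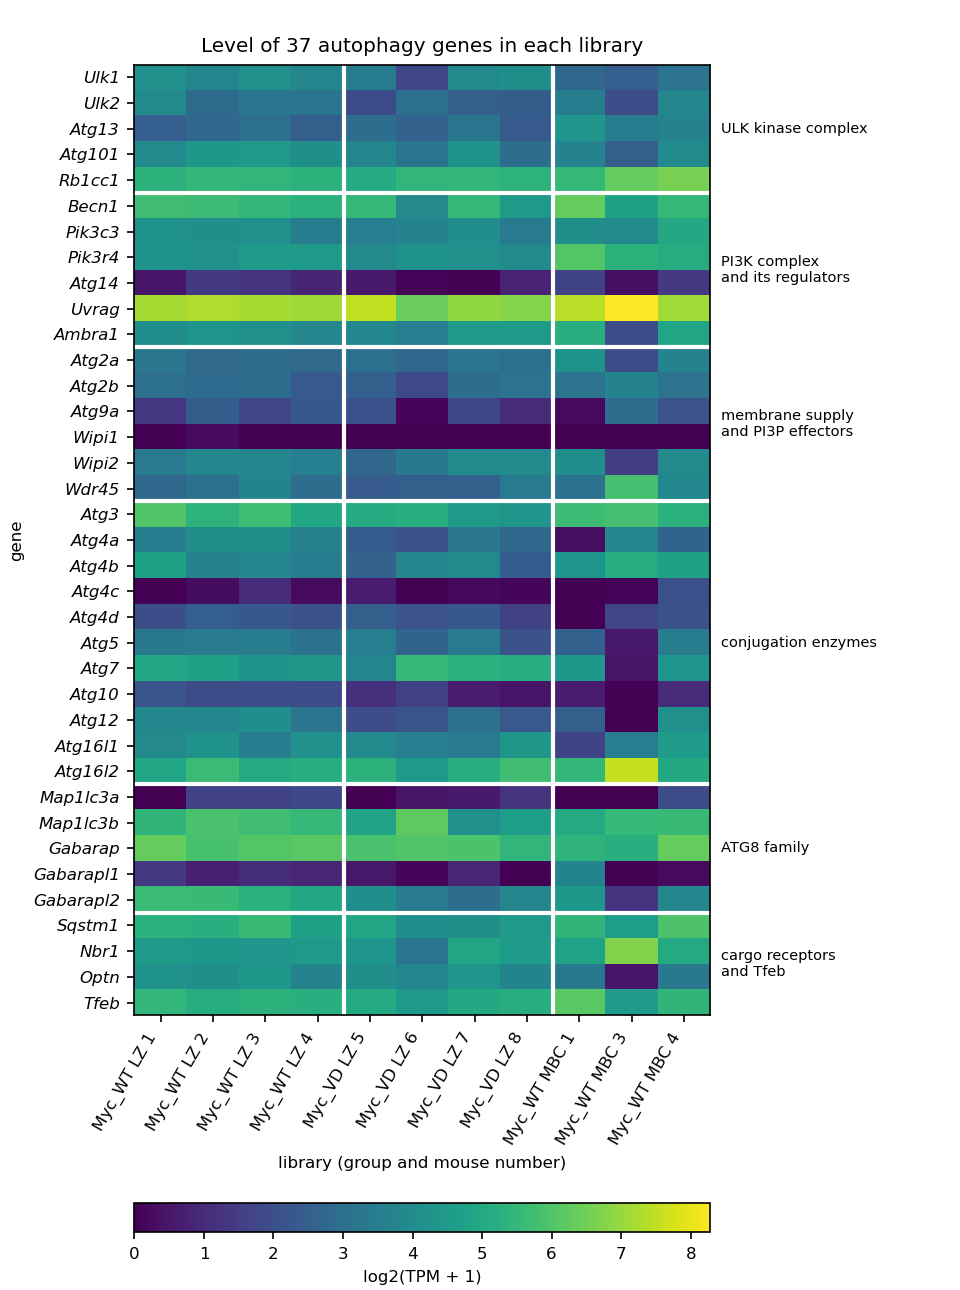
Colour gives log2(TPM + 1) of each of the 37 genes (rows, grouped by role) in each of the 11 libraries (columns, named by group and mouse number). Uvrag is bright in all columns and Wipi1 dark in all, and the MBC column of mouse 3 holds the highest value, 310.28 TPM for Uvrag.

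Myc_VD LZ B cells were compared with Myc_WT LZ B cells to ask what the machinery's RNA does when MYC cannot bind MIZ1. The means of 29 of the 33 genes tested were lower in Myc_VD and those of 4 (Atg7, Atg13, Atg2a and Ambra1) were higher, but none passed the adjusted test, which 6 of 12869 genes passed (0.0466% of those tested). Gabarapl2 had the lowest mean relative to Myc_WT (−1.80 on the log2 scale), followed by Atg12 (−1.38), Atg4a (−1.18) and Atg10 (−1.04), and in all 4 the Myc_VD mice lay below every Myc_WT mouse. No gene of the machinery had all Myc_VD mice above all Myc_WT mice. In RNA of sorted cells in bulk, fewer cells expressing a gene and less RNA per cell cannot be told apart.

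These directions have to be read against a shift of the whole table. Over all genes tested, the median difference was −0.31 and 73.7% of genes had a lower mean in Myc_VD. The median over the 33 autophagy genes was −0.38, with 20 genes under and 13 over the median of all genes. At an unadjusted p under 0.05, 7 of the 33 genes (21.2%) were lower and 0 were higher, against 15.7% lower and 1.24% higher among all genes tested. The 7 became 4 of 33 after rescaling by the median ratio, 3 of 35 after rescaling to protein-coding genes and 4 of 34 with all 3 groups in 1 fit, while the share of all genes that were lower became 6.30%, 5.32% and 7.22%. Groups that did not overlap were lower in Myc_VD for 4 of the 33 genes (12.1%) and higher for 0, against 9.16% and 0.816% of all genes tested. After rescaling of each library by the median ratio of its genes, the median of all genes moved to −0.01 and 18 of the autophagy genes were lower and 15 higher. Rescaling to protein-coding genes gave 19 lower and 16 higher of 35 tested. Plain genotype differences include this shift, and for some genes the difference relative to the median of all genes is given as well.

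MBCs were compared with LZ B cells of Myc_WT mice to ask how the machinery differs between these cell types. Again none of the genes, here 35 tested, passed the adjusted test, whereas 1219 of all 13245 genes did (9.2%, with 552 higher and 667 lower). The means of 19 genes were lower and those of 16 higher in MBCs. Gabarapl2 (−2.21), Optn (−1.72), Atg10 (−1.43) and Ulk1 (−1.17) were below the LZ range in all 3 MBC libraries, and Atg13 (1.13), Pik3r4 (1.11), Nbr1 (1.07), Rb1cc1 (0.75) and Atg2b (0.52) above it in all 3. Such groups made up 11.4% (below) and 14.3% (above) of the autophagy genes, against 14.4% and 11.8% of all genes tested. At an unadjusted p under 0.05, 4 of the 35 genes were lower and 4 higher (11.4% each), against 15.8% and 11.3% of all genes tested. The median of the 35 genes was −0.08 and that of all genes −0.14. A fit with the mouse as a block used mice 1, 3 and 4 only, so Myc_WT LZ mouse 2 was left out as well. It called 248 genes of the whole table and still 0 of the autophagy genes. Of the latter, 1 (2.86%, lower) had an unadjusted p under 0.05, against 9.93% lower and 6.86% higher of all genes. Leaving out Myc_WT LZ mouse 2 without a block gave 342 calls over all genes. Values with the mouse as a block therefore hold both changes.

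**Figure D2:**
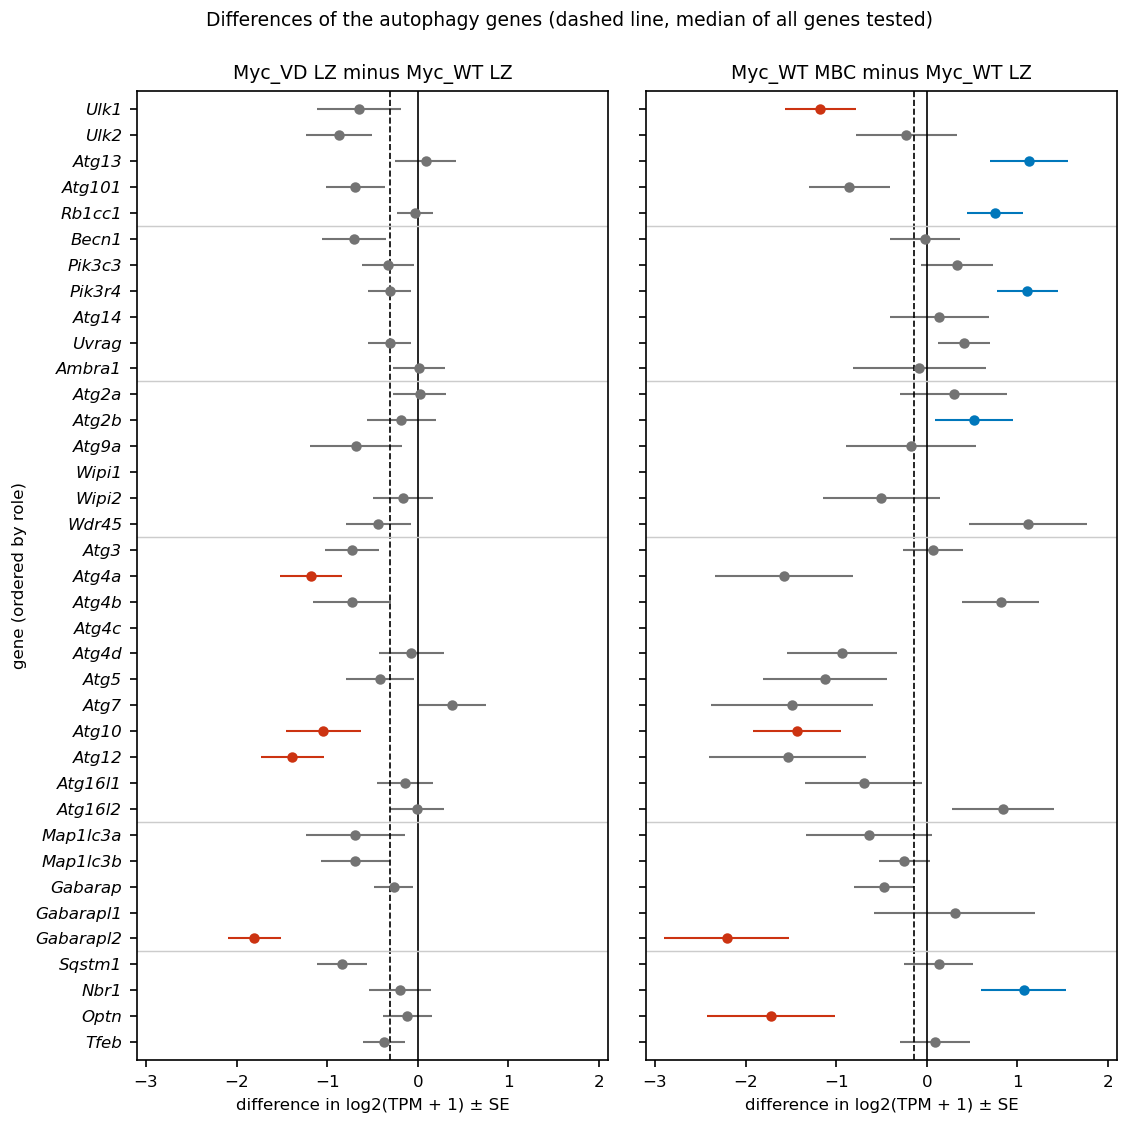
Each point is the difference in mean log2(TPM + 1) of 1 gene with its SE as the bar, for Myc_VD LZ minus Myc_WT LZ (left) and Myc_WT MBC minus Myc_WT LZ (right). Red points mark genes whose compared libraries all lie below the Myc_WT LZ range and blue points genes whose libraries all lie above it, and the dashed line is the median of all genes tested (−0.31 and −0.14).

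The ULK complex joins the kinases ULK1 or ULK2 to the scaffold proteins ATG13, ATG101 and FIP200 (Rb1cc1). Ulk1 was at 16.95, 13.04, 16.71 and 12.98 TPM in Myc_WT LZ mice 1 to 4, at 10.32, 2.39, 14.35 and 16.49 TPM in Myc_VD LZ mice 5 to 8, and at 5.91, 4.54 and 7.99 TPM in MBCs of mice 1, 3 and 4. Myc_VD mice 7 and 8 were within the Myc_WT range and mice 5 and 6 under it, while every MBC library lay under every LZ library of the same genotype. Its difference was −0.65 (SE 0.46, adjusted p = 0.501, −0.34 relative to all genes, and −0.13 without Myc_VD mouse 6) for genotype and −1.17 (SE 0.39, adjusted p = 0.0952) for MBCs, the latter at an adjusted p of 0.0376 without the MBC library of mouse 4, of 0.264 at most when a library was left out and of 0.444 with the mouse as a block. Ulk2, a related kinase, was at 14.19, 6.61, 8.49 and 8.22 TPM in Myc_WT LZ, 2.62, 7.24, 4.64 and 4.38 TPM in Myc_VD LZ, and 10.3, 2.91 and 13.26 TPM in MBCs. Myc_VD mouse 6 lay within the Myc_WT range and the other Myc_VD mice under it, a difference of −0.87 (SE 0.36, adjusted p = 0.257, −0.56 relative to all genes). In MBCs mouse 3 was under the LZ range and the others within it, with a difference of −0.23 (SE 0.56).

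Among the partners of these kinases, Atg13 was at 4.56, 5.99, 7.23 and 4.73 TPM in Myc_WT LZ, 7.03, 5.09, 8.4 and 4.05 TPM in Myc_VD LZ, and 19.09, 10.34 and 11.91 TPM in MBCs. The genotypes overlapped (0.09, SE 0.34), and leaving out Myc_VD mouse 7 turned the sign to −0.06. All MBC libraries were above all LZ libraries, with a mean 2.45 times the LZ mean (1.13, SE 0.43, adjusted p = 0.131, and 0.488 with the mouse as a block). Rb1cc1 was at 38.6, 43.31, 42.27 and 38.93 TPM in Myc_WT LZ and at 33.49, 42.72, 44.08 and 40.14 TPM in Myc_VD LZ, with overlap of the groups (−0.03, SE 0.20). MBCs of mouse 1 sat just above this range at 44.49 TPM, and those of mice 3 and 4 well above it at 78.29 and 94.62 TPM. That difference was 0.75 (SE 0.31, adjusted p = 0.161), or 1.06 at an adjusted p of 0.0408 without the MBC library of mouse 1 and 0.53 without that of mouse 4. Its adjusted p was 0.295 at most when a library was left out and 0.426 with the mouse as a block. A stretch of Rb1cc1 is 95.6% identical to the pseudogene Gm13961, which was at 0.06 TPM or less. Atg101 differed by −0.69 (SE 0.32) for genotype and −0.85 (SE 0.45) for MBCs, with overlap in both.

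VPS34 (Pik3c3) is the lipid kinase that makes PI3P, VPS15 (Pik3r4) is its regulatory subunit, and Beclin 1 (Becn1) links them to ATG14 or UVRAG. Becn1 was at 52.5, 50.23, 43.93 and 38.5 TPM in Myc_WT LZ, 44.29, 13.81, 44.42 and 21.81 TPM in Myc_VD LZ, and 79.56, 25.98 and 44.63 TPM in MBCs. In Myc_VD, mice 5 and 7 were within the Myc_WT range and mice 6 and 8 were under it, and MBC values stood above, under and within it. The differences were −0.70 (SE 0.35, adjusted p = 0.338, −0.39 relative to all genes) and −0.02 (SE 0.38). Pik3r4 (chromosome 9, 105642978 to 105687657) separated the cell types more sharply. It was at 18.26, 17.45, 22.61 and 21.75 TPM in Myc_WT LZ, 14.67, 17.48, 16.89 and 14.62 TPM in Myc_VD LZ, and 65.31, 38.87 and 33.75 TPM in MBCs. Every MBC library exceeded every LZ library, with a mean of 46.0 ± 16.9 TPM (n = 3) that was 2.30 times the Myc_WT LZ mean (SD 2.54 TPM, n = 4). This difference of 1.11 (SE 0.33) had the smallest adjusted p of the set for MBCs, 0.0718. It passed at 0.0343 without the MBC library of mouse 4 and at 0.0382 with all 3 groups in 1 fit, and stood at 0.203 at most when a library was left out and at 0.354 with the mouse as a block. Between genotypes Pik3r4 differed by −0.31 (SE 0.23), which is the median of all genes.

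Of the other genes of this complex, Ambra1, a regulator of Beclin 1, was at 15.69, 18.34, 16.94 and 13.34 TPM in Myc_WT LZ and 13.62, 10.71, 21.04 and 21.72 TPM in Myc_VD LZ, a difference of 0.01 (SE 0.29) with Myc_VD mice on both sides of the Myc_WT range. Its MBC values of 35.47, 2.82 and 28.52 TPM lay far above that range in mice 1 and 4 and far under it in mouse 3, and the difference of −0.08 (SE 0.73) became 0.95 without mouse 3. Pik3c3 differed by −0.33 (SE 0.28) and 0.33 (SE 0.40), the latter 0.011 without the MBC library of mouse 4. Uvrag, which shares stretches of at least 95% identity with several other genes so that reads could be split among them, differed by −0.31 (SE 0.24, and −0.14 without Myc_VD mouse 6) and 0.41 (SE 0.29, and 0.071 without the MBC library of mouse 3). Atg14, whose product brings the complex to the site of autophagosome formation, was at 0.37–1.68 TPM in Myc_WT LZ and 0–0.76 TPM in Myc_VD LZ, under the limit for the fit. An exact two-sided permutation test gave p = 0.114, where 0.0286 is the smallest that 4 mice against 4 can give. In MBCs Atg14 was at 0.27–2.22 TPM, a difference of 0.14 (SE 0.54).

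ATG9A vesicles and the lipid transfer proteins ATG2A and ATG2B supply membrane, and WIPI proteins, including WDR45, bind PI3P. Atg2a was at 8.66, 6.26, 7.02 and 6.25 TPM in Myc_WT LZ and 7.17, 5.76, 8.59 and 7.13 TPM in Myc_VD LZ, overlapping almost completely (0.02, SE 0.29). Its MBC values of 18.04, 2.85 and 11.89 TPM were above the LZ range in mice 1 and 4 and below it in mouse 3 (0.30, SE 0.59). Atg2b was at 7.26, 6.36, 6.91 and 4.02 TPM in Myc_WT LZ, 4.83, 2.54, 6.96 and 7.86 TPM in Myc_VD LZ, and 7.87, 11.94 and 7.85 TPM in MBCs. All 3 MBC libraries were above the Myc_WT LZ mice, though by a small margin in mice 1 and 4, and the difference was 0.52 (SE 0.44, adjusted p = 0.481). Between genotypes it was −0.18 (SE 0.38).

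Wdr45 showed how far single libraries could reach. It was at 5.95, 7.39, 12.3 and 6.83 TPM in Myc_WT LZ, 4.16, 4.73, 4.77 and 9.68 TPM in Myc_VD LZ, and 7.44, 56.8 and 13.44 TPM in MBCs. The MBC library of mouse 3 stood far above all others, and the difference of 1.12 (SE 0.65, adjusted p = 0.309) was 0.32 without it. Gm45208, which is identical to part of Wdr45, reached 5.88 TPM in MBCs. Of the remaining genes, Wipi2 differed by −0.16 (SE 0.33) for genotype and −0.50 (SE 0.64) for MBCs, and Atg9a by −0.68 (SE 0.51) and −0.18 (SE 0.71). Gm29253, identical to Atg9a over 1832 bases, was at 0–0.06 TPM in Myc_WT LZ, 0.03–1.38 TPM in Myc_VD LZ and 0–0.27 TPM in MBCs. Its part in the Atg9a values was not tested. Wipi1 was listed at 0 in all Myc_VD LZ and MBC libraries and in 2 of 4 Myc_WT LZ libraries, where the highest value was 0.18 TPM (exact permutation p = 0.429 for genotype and 0.714 for MBCs).

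ATG7 is the activating enzyme of both conjugation cascades. ATG10 and ATG3 are the carrier enzymes, ATG12 is the ubiquitin-like protein joined to ATG5, ATG16L1 completes that complex, and ATG4 proteases trim ATG8 proteins and release them again. Atg12 (chromosome 18, 46730144 to 46741580) was at 13.59, 13.15, 15.81 and 8.58 TPM in Myc_WT LZ, 2.85, 3.44, 7.4 and 3.99 TPM in Myc_VD LZ, and 4.7, 0 and 16.68 TPM in MBCs. The highest Myc_VD mouse was under the lowest Myc_WT mouse, and the Myc_WT mean was 2.89 times the Myc_VD mean (−1.38, SE 0.35, adjusted p = 0.117, −1.08 relative to all genes). MBC libraries ran from 0 to above the LZ range, with a difference of −1.54 (SE 0.86) that moved between −2.50 (adjusted p = 0.0483, without mouse 4) and −0.43 (without mouse 3), at an adjusted p of 0.577 at most when a library was left out and 0.488 with the mouse as a block.

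Atg10 (chromosome 13, 90935356 to 91223968) was low throughout, at 3.51, 2.83, 2.98 and 2.71 TPM in Myc_WT LZ, 1.24, 1.95, 0.55 and 0.39 TPM in Myc_VD LZ, and 0.57, 0 and 1.06 TPM in MBCs. Both other groups lay wholly under the Myc_WT LZ mice. The differences were −1.04 (SE 0.41, adjusted p = 0.236, −0.73 relative to all genes) and −1.43 (SE 0.49, adjusted p = 0.0974), the latter at 0.0386 without the MBC library of mouse 4, 0.239 at most when a library was left out and 0.420 with the mouse as a block. Atg4a (chromosome X, 140956907 to 141164270) was at 10.39, 15.93, 16 and 11.21 TPM in Myc_WT LZ, 4.32, 3.2, 8.78 and 5.91 TPM in Myc_VD LZ, and 0.24, 12.65 and 5.32 TPM in MBCs. Its genotype groups did not overlap (−1.18, SE 0.34, adjusted p = 0.145, −0.87 relative to all genes), whereas MBC mouse 3 stood within the LZ range (−1.58, SE 0.76, adjusted p = 0.22). That difference was −2.34 without mouse 3 (adjusted p = 0.0508) and −0.61 without mouse 1. Atg4a shares a stretch of 99.3% identity with Atg4a-ps, listed at 0.53 TPM or less.

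Atg7 was the member with the largest difference to higher values in Myc_VD. It was at 28.73, 25.42, 18.29 and 19.67 TPM in Myc_WT LZ and 12.61, 45.84, 38.08 and 35.04 TPM in Myc_VD LZ. Myc_VD mice 6, 7 and 8 were above every Myc_WT mouse and mouse 5 was below every one, so that the difference of 0.38 (SE 0.37, adjusted p = 0.621, 0.69 relative to all genes) was 0.77 without mouse 5 and 0.18 without mouse 6. In MBCs Atg7 was at 20.5, 0.36 and 19.52 TPM, within the LZ range in mice 1 and 4 and near 0 in mouse 3, and the difference of −1.49 (SE 0.90, adjusted p = 0.326) was −0.17 without mouse 3. Atg5 was at 9.03, 9.37, 10.5 and 7.44 TPM in Myc_WT LZ, 10.65, 5.23, 9.62 and 3.11 TPM in Myc_VD LZ, and 5, 0.47 and 10.05 TPM in MBCs. Its groups overlapped in both comparisons (−0.42, SE 0.37, and −1.12, SE 0.68), and the differences were −0.13 without Myc_VD mouse 8, −0.30 without the MBC library of mouse 3 and −1.75 without that of mouse 4. Among the genes with an E-box in the promoter window, Atg3 differed by −0.73 (SE 0.30, adjusted p = 0.254) for genotype and 0.07 (SE 0.33) for MBCs.

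**Figure D3:**
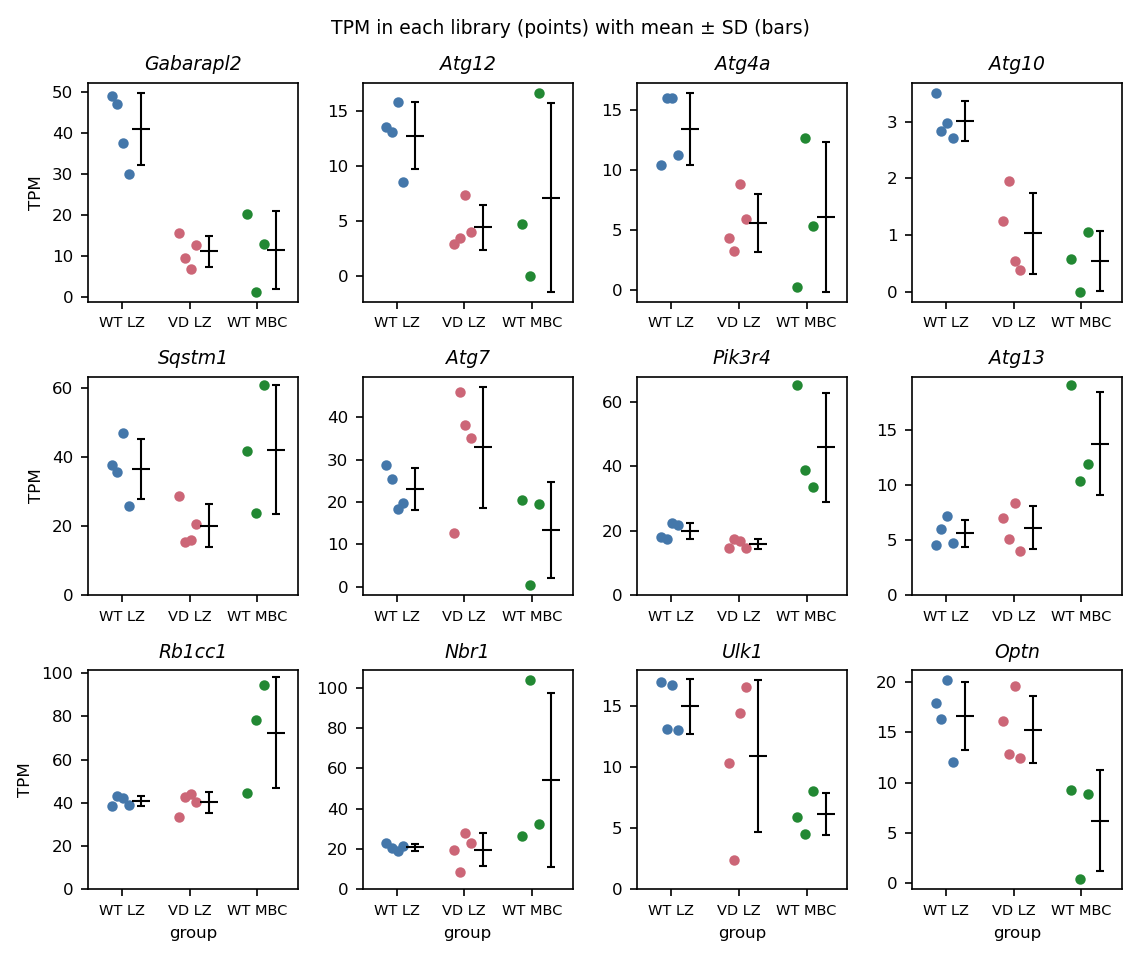
Each panel gives the TPM of 1 gene in the 4 Myc_WT LZ (blue), 4 Myc_VD LZ (red) and 3 Myc_WT MBC (green) libraries, 1 point for each, with the mean and SD of the group in black on a linear axis. Gabarapl2, Atg12, Atg4a and Atg10 show Myc_VD points under all Myc_WT LZ points, and Pik3r4, Atg13, Rb1cc1 and Nbr1 show MBC points above them.

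Atg16l2, a relative of Atg16l1 expressed in lymphocytes, was at 28.12, 49.52, 32.59 and 34.69 TPM in Myc_WT LZ and 39.02, 21.15, 35.56 and 52.25 TPM in Myc_VD LZ, a difference of −0.01 (SE 0.30) with the Myc_VD mice on both sides. In MBCs it was at 43.79, 187.27 and 31.91 TPM. Mouse 3 alone left the LZ range, and the difference of 0.84 (SE 0.56) was 0.08 without it. Atg16l1 differed by −0.14 (SE 0.31) and −0.70 (SE 0.64). Atg4b differed by −0.73 (SE 0.43) for genotype and 0.81 (SE 0.43) for MBCs, Atg4d by −0.07 (SE 0.36) and −0.93 (SE 0.61), and neither separated the groups in either comparison. Atg4c was under the limit for both fits, at 0–1.08 TPM in Myc_WT LZ, 0–0.59 TPM in Myc_VD LZ and 0–3.05 TPM in MBCs (exact permutation p = 0.6 and 0.686). Over the 10 conjugation genes tested in each comparison, the median difference was −0.57 for genotype (−0.26 relative to all genes) and −1.03 for MBCs. The latter was −0.36 without the MBC library of mouse 3 and −0.46 without that of mouse 1.

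ATG8 proteins are the ubiquitin-like proteins that are attached to lipid on the autophagosome, in the LC3 and GABARAP branches. Gabarapl2 (ENSMUSG00000031950, chromosome 8, 111940703 to 111953612 in GRCm38) was at 49.24, 47.14, 37.66 and 30.16 TPM in Myc_WT LZ, 15.79, 9.62, 7.02 and 12.71 TPM in Myc_VD LZ, and 20.28, 1.38 and 13.11 TPM in MBCs. Every Myc_WT LZ mouse stood well above every Myc_VD mouse and every MBC library. Means were 41.0 ± 8.84 TPM (n = 4) in Myc_WT LZ, 11.3 ± 3.80 TPM (n = 4) in Myc_VD LZ and 11.6 ± 9.54 TPM (n = 3) in MBCs, so that the Myc_WT LZ mean was 3.64 times the first and 3.54 times the second. The genotype difference of −1.80 (SE 0.29), against a median of −0.31 over all genes, had an unadjusted p of 5.69e-05 and an adjusted p of 0.0634. It passed without Myc_VD mouse 5 (adjusted p = 0.0286) and with a limit of 5 TPM on the mean (0.0478), and stood at 0.107 after rescaling by the median ratio, at 0.145 after rescaling to protein-coding genes, at 0.294 at most when a mouse was left out and at 0.487 with all 3 groups in 1 fit. The MBC difference of −2.21 (SE 0.69, adjusted p = 0.0798) passed at 0.0412 without mouse 1 (−2.83), at 0.0429 without mouse 3 (−1.25) and at 0.0338 with all 3 groups in 1 fit, and stood at 0.195 at most when a library was left out and at 0.171 with the mouse as a block. Gabarapl2 has 3 processed pseudogenes that are 96.6–99.4% identical over 349–352 bases. They were at 0 in every Myc_VD LZ and MBC library and at no more than 2.25 TPM in Myc_WT LZ. How reads were split between Gabarapl2 and these copies was not tested.

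Of the other ATG8 genes, Map1lc3b, which encodes the LC3 protein most used as an autophagosome marker, was at 42.19, 59.11, 52.47 and 44.41 TPM in Myc_WT LZ, 27.87, 73.29, 16.88 and 23.45 TPM in Myc_VD LZ, and 32.1, 45.87 and 47.51 TPM in MBCs. Myc_VD mouse 6 was the highest of all libraries and the other Myc_VD mice were under the Myc_WT range, a difference of −0.69 (SE 0.38, adjusted p = 0.382, −0.38 relative to all genes) that was −1.11 without mouse 6. For MBCs it was −0.25 (SE 0.28). Of its 4 near-identical pseudogenes, Gm6055 was at 3.34–10.49 TPM in Myc_WT LZ and reached 9.48 TPM in Myc_VD LZ and 6.34 TPM in MBCs. Gm6054 reached 6.78, 0.89 and 6.75 TPM in these groups, so that part of the Map1lc3b RNA may be counted in either. Gabarap, of the same branch as Gabarapl2, was at 57.33–78.43 TPM in Myc_WT LZ, 42.99–64.75 TPM in Myc_VD LZ and 35.48–78.97 TPM in MBCs (−0.27, SE 0.21, and −0.47, SE 0.33). Map1lc3a was at 0, 2.06, 2.13 and 2.51 TPM in Myc_WT LZ, 0, 0.36, 0.51 and 1.43 TPM in Myc_VD LZ, and 0, 0 and 2.71 TPM in MBCs. Each group held at least 1 library at 0 and the groups overlapped in both comparisons (−0.69, SE 0.54, and −0.64, SE 0.70). Gabarapl1 was at 0–0.87 TPM in Myc_VD LZ against 0.66–1.6 TPM in Myc_WT LZ (exact permutation p = 0.0857), and reached 12.42 TPM in the MBC library of mouse 1 while the other MBC libraries had 0 and 0.17 TPM.

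Cargo receptors carry ubiquitinated or damaged material to ATG8 proteins and are themselves degraded with it. Sqstm1 (p62) was at 37.78, 35.79, 46.91 and 25.85 TPM in Myc_WT LZ, 28.9, 15.39, 15.93 and 20.64 TPM in Myc_VD LZ, and 41.83, 23.71 and 60.95 TPM in MBCs. Myc_VD mice 6, 7 and 8 were under all Myc_WT mice and mouse 5 was within their range, a difference of −0.84 (SE 0.28, adjusted p = 0.178, −0.53 relative to all genes). MBC values enclosed the LZ range (0.13, SE 0.38). Nbr1 was at 22.74, 20.3, 18.82 and 21.39 TPM in Myc_WT LZ, 19.54, 8.26, 27.9 and 22.92 TPM in Myc_VD LZ, and 26.18, 103.96 and 32.41 TPM in MBCs. The MBC libraries were all above the LZ libraries of Myc_WT, mouse 3 by far the most, and the difference of 1.07 (SE 0.47, adjusted p = 0.183) was 0.47 without mouse 3.

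Optn (optineurin) was at 17.88, 16.34, 20.12 and 12.05 TPM in Myc_WT LZ, 16.13, 12.79, 19.53 and 12.44 TPM in Myc_VD LZ, and 9.29, 0.43 and 8.88 TPM in MBCs. The Myc_VD values lay within the Myc_WT range (−0.12, SE 0.27), and the MBC libraries lay under it, mouse 3 near 0 (−1.72, SE 0.71, adjusted p = 0.158, and −0.78 without mouse 3). Tfeb was at 43.69, 34.23, 39.39 and 36.36 TPM in Myc_WT LZ, 32.52, 20.88, 30.89 and 34.85 TPM in Myc_VD LZ, and 70.27, 22.87 and 42 TPM in MBCs. Myc_VD mouse 8 reached into the Myc_WT range and the others stayed under it (−0.38, SE 0.23, adjusted p = 0.438, −0.07 relative to all genes), and MBCs spread on both sides (0.09, SE 0.38).

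The genes varied most among MBC libraries. Among those averaging 1 TPM or more in the group, the median coefficient of variation was 21.3% in Myc_WT LZ, 37.01% in Myc_VD LZ and 70.9% in MBCs. Leaving out 1 library moved the difference by over 1.5 times, or turned its sign, for 23 of 33 genes tested between genotypes and 29 of 35 tested for MBCs. The MBC library of mouse 3 had 8 of the 37 genes at under 0.1 times the Myc_WT LZ mean and 3 at over 3 times that mean. These counts were 4 and 3 for the MBC library of mouse 1, and 0 and 0 for that of mouse 4. The MBC libraries also stood apart over the whole table. There, log2(TPM + 1) of 2 MBC libraries correlated at a median r of 0.872 across genes (3 pairs), against 0.973 for Myc_WT LZ and 0.936 for Myc_VD LZ (6 pairs each). Genes are not independent replicates, and these values describe the libraries only.

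Genes around the machinery were read from 3 further lists, of other autophagy genes (27), lysosome genes (32) and upstream regulators of autophagy such as AMPK and mTORC1 subunits (30). In Myc_VD none of their genes passed the adjusted test, and 4 of 26, 7 of 31 and 3 of 25 tested genes were lower at an unadjusted p under 0.05 with 0 higher, beside the 15.7% lower and 1.24% higher of all genes tested. Their medians of −0.32, −0.40 and −0.34 lay close to the median of all genes. The 2 largest differences to lower values in each list were those of Vamp8, a SNARE that fuses autophagosomes with lysosomes (49.0–77.6 TPM in Myc_WT and 15.5–31.4 TPM in Myc_VD, −1.27, adjusted p = 0.108), Bnip3 (−1.19), the lipid-cleaving enzyme Lipa (−1.27), the cholesterol transporter Npc1 (−1.10), Prkab2 (−0.86) and Ddit4 (−0.76). Pink1 (0.54), Bcl2 (0.40), Neu1 (0.30), Akt1s1 (0.35) and Tfe3 (0.16) were among the genes with the largest differences to higher values, each with overlap of the groups.

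In MBCs, genes of these lists passed the test. Of 26 other autophagy genes tested 4 rose and 0 fell, and of 32 lysosome genes 4 rose and 0 fell, against 4.17% higher and 5.04% lower over all genes. Medians of these lists were 0.39 and 0.38. Bcl2, the survival factor that also holds Beclin 1, rose from 1.41 TPM to a mean of 62.7 TPM (4.65, SE 0.45, adjusted p = 0.00149). Pink1, which marks damaged mitochondria, rose by 2.80 (SE 0.71, adjusted p = 0.0424), and the cargo receptors Calcoco1 and Tax1bp1 by 2.61 (SE 0.67, adjusted p = 0.0451) and 1.24 (SE 0.28, adjusted p = 0.0303). Among lysosome genes, Psap, the precursor of sphingolipid activator proteins, rose by 2.44 (SE 0.32), and the cathepsins Ctsc and Ctss by 1.56 (SE 0.35) and 1.45 (SE 0.21). Ctss, for example, was at 133–203 TPM in LZ and 426–474 TPM in MBC libraries. The myeloid list was higher in the same MBC libraries (42.2–225 TPM in sum), and its part in these lysosome values was not tested. Among the largest differences to lower values were those of Bnip3 (−1.77, adjusted p = 0.0536), Fundc1 (−1.67) and Atp6v0d1 (−1.39), none of which passed, and Ctsd had a mean difference of 1.83 that did not pass (adjusted p = 0.132).

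Of 25 upstream regulators tested, 0 rose and 2 fell in MBCs, with a median of −0.11. They were the AMPK subunit Prkag1 (13.1–26.9 TPM in LZ and 2.69–7.07 TPM in MBCs, −1.96, SE 0.46, adjusted p = 0.0337) and Rraga, a GTPase that recruits mTORC1 to lysosomes (47.2–78.5 and 15.1–30.1 TPM, −1.34, SE 0.34, adjusted p = 0.0424). Prkag2 differed by −1.41 and did not pass, nor did the 2 largest differences to higher values, those of Akt1s1 (1.21) and Foxo3 (1.12). With the mouse as a block, Bcl2 (adjusted p = 0.0138), Psap (0.0232) and Ctss (0.0488) remained called and Ctsc, Pink1, Calcoco1, Tax1bp1, Prkag1 and Rraga did not (0.0729–0.269). Leaving out any 1 of the Myc_WT LZ libraries took Pink1, Calcoco1, Tax1bp1, Ctsc, Prkag1 and Rraga past the threshold (adjusted p = 0.0633–0.143). So did leaving out the MBC library of mouse 1 for Pink1, Calcoco1, Tax1bp1 and Prkag1 (0.0548–0.0910) and that of mouse 3 for Pink1 (0.0694).

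**Figure D4:**
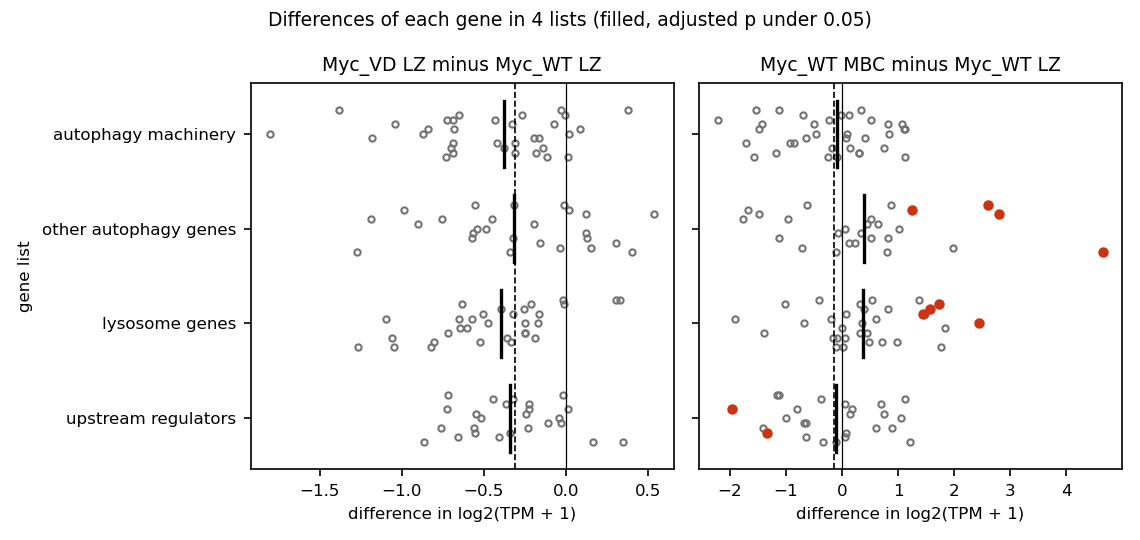
Points are the differences in mean log2(TPM + 1) of single genes in the autophagy machinery and 3 further lists, for Myc_VD LZ minus Myc_WT LZ (left) and Myc_WT MBC minus Myc_WT LZ (right). Filled red points passed an adjusted p of 0.05, solid bars are list medians, and the dashed line is the median of all genes tested; the left panel and the top row hold open points only, and the highest filled point on the right is Bcl2 at 4.65.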

How the data were processed

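RNA of LZ B cells and MBCs was analysed in 11 libraries of 8 mice, made with a Nugen cDNA kit and sequenced on an Illumina HiSeq. According to the methods and the submitters' processing notes, the authors aligned reads with STAR 2.5.2a, estimated levels of Ensembl genes (GRCm38) with RSEM 1.3.0 in a stranded mode, and deposited a single table of TPM with 2 decimals. Their own tests used counts, which were not used here. TPM give no depth, so no counting error or detection limit can be stated.

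Symbols, positions and gene classes were those of GENCODE M21 on GRCm38, in which 48435 of the 48795 IDs were found. Genotype and cell type were each compared in a fit of the groups concerned, with limma 3.58.1 in R 4.3.3 (eBayes with a trend) on log2(TPM + 1). Genes averaging under 1 TPM were left out. All tests were two-sided, and p-values were adjusted by the Benjamini-Hochberg method with a threshold of 0.05. Members under the limit were tested by exact permutation over 70 groupings (4 mice against 4) or 35 (3 libraries against 4). Scripts were tested on simulated data. Near-identical transcripts (at least 95% over 300 bases) were found with blastn 2.17.0, and tables and plots were made with pandas 2.3.3 and matplotlib 3.10.9 in Python 3.11.15. Labels say that each LZ library comes from its own mouse, so p-values measure the spread between mice.

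MBC and LZ libraries of mice 1, 3 and 4 are pairs by animal. Their deviations from the group means correlated at r = 0.00507, 0.0115 and -0.0470 across 13245 genes. A fit with the mouse as a block was an alternative, and it left out the unpaired LZ library of mouse 2. The other alternatives left out each library in turn, fitted all 3 groups together, dropped the trend, rescaled TPM in 2 ways, used a pseudocount of 0.1, or set the limit on low genes to none or to 5 TPM.

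The 37 genes and the further lists were chosen with earlier results of these data known. Given library by library are genes past the adjusted test, genes whose groups do not overlap, the 5 largest differences each way in each comparison, and Ulk1, Becn1, Atg5, Atg7, Map1lc3b, Sqstm1 and Tfeb. Of the further lists, genes past the adjusted test and the 2 largest differences each way are named, apart from some not reported here, and of the remaining members the differences.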

Additional observations from a re-analysis of the deposited data

Results flagged for a closer look

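In 73 sets of 4 LZ values, 1 for each gene and genotype with any spread, the gap between the most extreme mouse and its neighbour was set against the whole range on the log2(TPM + 1) scale (Dixon's test). Chance flags about 1 in 20 such sets, and 2 were found here. Wdr45 was at 9.68 TPM in Myc_VD mouse 8 and at 4.16–4.77 TPM in the other Myc_VD mice. Map1lc3a was listed at 0 TPM in Myc_WT LZ mouse 1 and at 2.06–2.51 TPM in the other Myc_WT LZ mice. The groups of 3 MBC libraries were not tested in this way.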

How the results depend on the processing

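Each comparison was repeated under 15 alternatives. Of 488 member differences in Myc_VD, 448 kept direction and call, 38 changed sign and 2 became calls. Of 517 in MBCs, the numbers were 490, 18 and 9. In Myc_VD, 1 member (Gabarapl2) was called at a minimum of 5 TPM, and 0 to 1 when a library was left out. In MBCs, 2 (Gabarapl2 and Pik3r4) were called with all 3 groups in 1 fit, and 0 to 4 when a library was left out. Over all genes, calls in Myc_VD were 0 with a pseudocount of 0.1, without a filter, after rescaling by the median ratio and with all 3 groups in 1 fit, 15 at a minimum of 5 TPM, 1 (lower) after rescaling to protein-coding genes, and 0 to 254 without single libraries (254 without Myc_VD mouse 5). In MBCs they were 608 without a filter, 248 with the mouse as a replicate block, and 342 to 2754 without single libraries (2754 without MBC mouse 4, and 342 to 519 without any 1 of the LZ mice). The median of the members relative to all genes moved by less than the spread between mice throughout. The block changed no call among the members. Of the further lists, Calcoco1, Tax1bp1, Pink1, Ctsc, Prkag1 and Rraga also lost their MBC calls without a filter, all but Prkag1 of these without a trend (adjusted p = 0.0514–0.0753), Calcoco1 and Pink1 with a pseudocount of 0.1 (0.0673 and 0.0558), and Calcoco1 after rescaling to protein-coding genes (0.0507). The cause of these changes was not tested, and the precision of low genes is limited by unknown depth.

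Signs that turned in Myc_VD were those of Atg16l1 (0.18 by the median ratio and 0.23 by protein-coding genes), Atg16l2 (0.33 and 0.37), Atg2b (0.11 and 0.15), Atg4d (0.19 and 0.25), Gabarap (0.074 and 0.12), Nbr1 (0.13 and 0.18), Optn (0.21 and 0.25), Pik3r4 (0.018 and 0.059), Rb1cc1 (0.31 and 0.35), Uvrag (0.033 and 0.074), Wipi2 (0.16 and 0.20) and Pik3c3 (0.032 by protein-coding genes). Without single libraries, differences in Myc_VD ran from −0.12 to 0.19 for Ambra1, −0.061 to 0.24 for Atg13, −0.19 to 0.23 for Atg16l2, −0.062 to 0.11 for Atg2a, −0.36 to 0.085 for Atg2b, −0.20 to 0.10 for Atg4d, −0.39 to 0.15 for Nbr1, −0.076 to 0.053 for Rb1cc1 and −0.32 to 0.091 for Wipi2. In MBCs they ran from −0.68 to 0.95 for Ambra1, −0.13 to 0.54 for Atg14, −1.33 to 0.080 for Atg16l1, −0.18 to 0.97 for Atg2a, −0.12 to 0.25 for Atg3, −0.77 to 0.60 for Atg9a, −0.42 to 0.37 for Becn1, −0.18 to 0.48 for Sqstm1, −0.29 to 0.50 for Tfeb, −0.59 to 0.34 for Ulk2 and −0.95 to 0.33 for Wipi2. Becn1 turned to 0.021 under the block and Gabarapl1 to −0.66 with a pseudocount of 0.1.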
